A study of Mus musculus with 6 samples.

Results

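The haemoglobin genes and the erythroid enzyme of haem synthesis were examined in the prefrontal cortex of aged mice. Their transcripts were taken as a measure of residual blood in the dissected tissue, a reading that was not tested. The members were the genes whose Ensembl identifier corresponds to Hba-a1, Hba-a2, Hbb-bs, Hbb-bt or Alas2, a rule that uses no measured value, although the set was picked with earlier results of these data known. Of these 5 genes, 4 had values among the 21006 genes measured, and Alas2 was not analysed here. The samples came from male C57BL/6 mice, 18 months old by the age label (the sample titles carry 17 months). The PND group (postoperative neurocognitive disorder, n = 3) inhaled 1.5% isoflurane and underwent an exploratory laparotomy, an opening of the abdomen for inspection, and the CON group (n = 3) had neither at that time. The PND animals also received lidocaine cream and povidone iodine on the wound. Surgery, anesthetic and wound care were given together, so their parts cannot be told apart. In the study all animals, CON included, were put under deep isoflurane anesthesia at the end of a Barnes maze test of spatial memory and perfused through the heart with saline before the cortex was dissected. Each animal gave 1 sample, and expression was given as FPKM (fragments for each kilobase of exon, scaled to the depth of the library).

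Haemoglobin carries oxygen in red blood cells and is built from paired alpha- and beta-globin chains, each holding a haem group. Mature red cells of mammals have no nucleus, but the youngest of them, the reticulocytes, still carry large amounts of globin mRNA, so that globin transcripts in a solid tissue are commonly read as blood left in its vessels. Haem is made in nearly all cells from glycine and succinyl-CoA, and its first step is catalysed by Alas1 in most cells and by Alas2 in developing red cells.

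The adult mouse carries a pair of near-identical alpha genes and a pair of near-identical beta genes. In GRCm38, Hba-a1 (ENSMUSG00000069919) lies on chromosome 11 at 32283511 to 32284465 on the plus strand, and Hba-a2 (ENSMUSG00000069917) on the same strand at 32296489 to 32297298. Hbb-bs (ENSMUSG00000052305) lies on chromosome 7 at 103826534 to 103828096 on the minus strand, and Hbb-bt (ENSMUSG00000073940) at 103812524 to 103813996 on the same strand. Alas2 (ENSMUSG00000025270) lies on chromosome X at 150547375 to 150570638. All 4 globin genes have 3 exons. The coding sequences of Hba-a1 and Hba-a2 are 426 bases long and differ at 1 base (C381T, counted from the A of the start codon of Hba-a1), with an identical run of 380 bases before it. Those of Hbb-bs and Hbb-bt are 441 bases long and differ at 1 base as well (C417T), after an identical run of 416 bases. The stretch of the last coding exon around each difference is shown, because it is the only place where a coding fragment can be assigned to 1 copy. The capital letter marks the base that differs within each pair.

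Hba-a1, chr11:32284303-32284367, plus strand: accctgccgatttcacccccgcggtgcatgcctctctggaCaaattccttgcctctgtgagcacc
Hba-a2, chr11:32297120-32297184, plus strand: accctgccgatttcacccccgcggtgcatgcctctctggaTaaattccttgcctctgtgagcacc
Hbb-bs, chr7:103826668-103826732, minus strand: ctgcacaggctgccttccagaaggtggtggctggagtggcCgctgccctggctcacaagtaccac
Hbb-bt, chr7:103812659-103812723, minus strand: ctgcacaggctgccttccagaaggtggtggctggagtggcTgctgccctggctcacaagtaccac

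Fragments from the untranslated ends separate the copies further. Among all 100-base windows along the main transcript, the share found in no other annotated transcript was 43.5% for Hba-a1 and 25.5% for Hba-a2. It was 37.4% for Hbb-bs, 45.2% for Hbb-bt and 100% for Alas2. The shared windows of each globin were found only in its partner copy. How the authors assigned fragments that match both copies was not given, so the split within a pair is uncertain, and the sum of a pair would be too low if such fragments were dropped.

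The 250 bases before the RefSeq start site are shown for 1 gene of each pair, because all 4 globin genes were above 0 in the same animal. Capitals mark matches on either strand to the cores of boxes known from globin promoters. The letters searched were GATAAG for the box that GATA factors bind, CACCC for the box of Kruppel-like factors, CCAAT for the box further downstream, and TATAA for the box nearest to the start site. The sequence is in the direction of transcription and ends at the base before the start site in GRCm38.p6.

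Hba-a2, chr11:32296242-32296491, plus strand: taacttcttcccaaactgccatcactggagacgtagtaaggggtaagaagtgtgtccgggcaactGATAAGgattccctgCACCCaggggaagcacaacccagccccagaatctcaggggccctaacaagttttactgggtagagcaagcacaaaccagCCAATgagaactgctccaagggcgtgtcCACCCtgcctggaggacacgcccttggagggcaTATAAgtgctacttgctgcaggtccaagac
Hbb-bs, chr7:103827929-103828178, minus strand: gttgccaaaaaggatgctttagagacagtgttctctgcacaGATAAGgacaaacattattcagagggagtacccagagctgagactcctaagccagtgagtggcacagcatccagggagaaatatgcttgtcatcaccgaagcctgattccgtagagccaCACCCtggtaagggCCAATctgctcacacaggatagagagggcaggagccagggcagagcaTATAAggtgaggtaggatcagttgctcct

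Upstream of Hba-a1 the sequence was identical to that of Hba-a2 over the 247 bases the windows share. Each of the 4 globin windows held all 4 motifs. GATAAG was found in 6.55% of 32851 mouse promoter windows of the same length, CACCC in 52%, CCAAT in 33.8% and TATAA in 22.8%. In the Alas2 window CACCC was found at 3 and TATAA at 2 positions, and GATAAG and CCAAT at 0. The distance from the start site to the last TATAA was between 27 and 30 bases in the 4 globin genes. The matches describe these letters and windows only.

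The depth of the samples was not stated. The steps between low FPKM values gave an effective depth between 7179246 and 9370761 fragments per sample. On this scale a floor of 3 fragments corresponded to 0.394 to 0.626 FPKM for a globin gene. Such floors cover counting error only, and the fragment numbers are estimates because the exon lengths used by the authors may differ from those of the annotation. Values above 0 of Hba-a1 and Hba-a2 in PND replicate 3 and of Hbb-bs in CON replicate 1 came to 0.442 to 0.679 fragments. Whole fragments cannot give such numbers, so the scale may be too low for these genes. The level of 3 fragments would then lie lower in FPKM than the floor given. The samples were checked for neuronal tissue with 8 neuronal markers, all of which had values, and their sum lay between 837 and 976 FPKM in each sample. This does not check the labelled region. Several genes used by all cells were low in every sample. Gapdh, a glycolytic enzyme, had 2.68 to 6.85 FPKM and Ppia, a peptidyl-prolyl isomerase, 0.502 to 2.00 FPKM. The median of 77 ribosomal protein genes lay between 3.61 and 5.28 FPKM in the 6 samples, and 3 of their 462 values, all in 1 gene, were listed at 0. Other such genes were high, with Actb (a cytoskeletal actin) at 77.0 to 111 FPKM and Eef1a1 (a translation factor) at 85.0 to 100.4 FPKM. These reference genes were chosen after their values were seen. A globin value of 0 is therefore given only as listed at 0. The part that a general lowering of such genes may have in the globin values was not tested.

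The alpha-globin genes were near or at 0 in all animals. Hba-a1 had 0.758 FPKM in PND replicate 1, 0.0893 FPKM in PND replicate 3, and was listed at 0 in PND replicate 2 and in all 3 CON samples. Hba-a2 had 0.216 FPKM in PND replicate 1 and 0.102 FPKM in PND replicate 3, and was listed at 0 in the same 4 samples. The alpha genes were thus above 0 in 2 of 3 PND and in 0 of 3 CON animals, and the groups overlapped because PND replicate 2 was at 0. The value of Hba-a1 in PND replicate 1 corresponded to 5.45 estimated fragments and was the only alpha-globin value above the floor of 3. That of Hba-a2 in the same animal corresponded to 1.27 fragments, and the values in PND replicate 3 to 0.679 and 0.635 fragments.

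The beta-globin genes followed a like pattern. Hbb-bs had 1.30 FPKM in PND replicate 1 and 0.0769 FPKM in CON replicate 1, and was listed at 0 in the other samples. Hbb-bt had 0.482 FPKM in PND replicate 1 and was listed at 0 elsewhere. PND replicate 1 held the highest value of both genes, and the remaining PND samples lay at 0 together with most CON samples. The estimates were 8.87 fragments for Hbb-bs and 3.00 for Hbb-bt in PND replicate 1, and 0.442 for Hbb-bs in CON replicate 1. In PND replicate 1, 45.0% of all genes had a lower level than Hbb-bs, 36.4% than Hba-a1, 30.2% than Hbb-bt and 20.7% than Hba-a2, so that no globin reached the middle of the distribution.

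**Figure D1:**
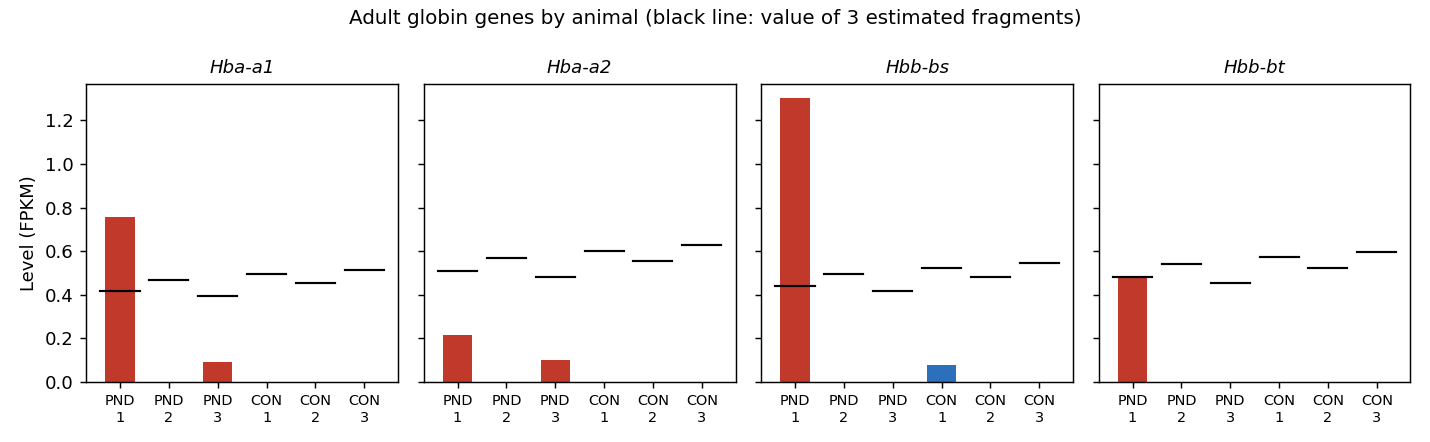
Level of each adult globin gene in FPKM (vertical axis, linear, from 0) in the 3 PND animals (red bars) and the 3 CON animals (blue bars), with 1 bar per animal and no bar where the gene was listed at 0. The black line over each animal is the level that 3 estimated fragments would give, on a scale that may be too low for these genes. Only Hba-a1 (0.758 FPKM), Hbb-bs (1.30 FPKM) and Hbb-bt (0.482 FPKM, on the line) in PND replicate 1 reached it.

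Of the 24 globin values, 7 were above 0 (29.2%). PND replicate 1 held 4 of them, PND replicate 3 held 2 and CON replicate 1 held 1. Hbb-bt was 1 of 108 genes (0.514% of those measured) that were above 0 in PND replicate 1 alone, against 74 to 130 genes in each of the other samples, so this sample was not the one with the most such genes.

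Summed over the 4 genes, globin mRNA amounted to 2.76 FPKM in PND replicate 1, 0.191 FPKM in PND replicate 3 and 0.0769 FPKM in CON replicate 1, and to 0 in the other samples. As a share of all FPKM of a sample this was 12.8, 0.797 and 0.341 ppm (parts of 1000000). With the 13 mitochondrial genes left out of the sum, which took 30.4% to 38.8% of it, the shares were 18.4, 1.27 and 0.517 ppm. In PND replicate 1 the alpha genes summed to 0.974 FPKM and the beta genes to 1.79 FPKM, a ratio of 0.545. Of the alpha sum in that animal, 77.8% was assigned to Hba-a1, and of the beta sum 73.0% to Hbb-bs. In PND replicate 3 the alpha sum was split nearly evenly, with 46.8% for Hba-a1, from less than 1 estimated fragment for each gene. In bulk samples, fewer red cells and less globin mRNA per cell cannot be told apart, and the cell type that held the mRNA was not measured.

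To ask whether globin mRNA differed after anesthesia and surgery, the groups were compared in limma on log2(FPKM + 0.1). A gene was called when its absolute log2 difference exceeded 1 with an unadjusted p below 0.05, the cut-off of the study. Among the 18185 genes tested across the series 241 were called (1.33%), of which 153 were higher (0.841%) and 88 lower in PND (0.484%). Of the globin genes 0 of 4 were called. Hba-a1 and Hbb-bs passed the filter (an average of at least 0.1 FPKM over the samples) only through PND replicate 1, and Hba-a2 and Hbb-bt did not pass it, so their values come from the fit with no filter. Because most CON values were 0, the differences depend on the added 0.1 and give no fold change of the transcript.

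The estimate of PND minus CON for Hba-a1 was 1.34 on the log2(FPKM + 0.1) scale (SE 0.79, 95% interval -0.52 to 3.20), with an unadjusted p of 0.133 in limma and an exact two-sided permutation p of 0.4. For Hbb-bs it was 0.996 (SE 1.04, 95% interval -1.44 to 3.43), with an unadjusted limma p of 0.369 and an exact permutation p of 1. The corresponding estimates without a filter were 0.89 for Hba-a2 (SE 0.44, 95% interval -0.15 to 1.93, limma p 0.0823, exact permutation p 0.4) and 0.85 for Hbb-bt (SE 0.68, 95% interval -0.74 to 2.44, limma p 0.250, exact permutation p 1). After Benjamini-Hochberg adjustment over all genes, the limma p was 0.9999 for Hba-a1 and Hbb-bs, and for Hba-a2 and Hbb-bt it was 0.9996 in the fit with no filter. Across the series 2 genes (0.011%) had an adjusted p below 0.05. The smallest p that 3 animals against 3 can give in the exact permutation test is 0.10. All 4 intervals included 0 and reached beyond a log2 difference of 1, so these samples could not tell equal levels from a difference past the cut-off. In 0 of the 4 genes did the groups lie apart without overlap, against 1393 of the 18185 genes tested (7.66%).

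The size of the difference rested on PND replicate 1. With that animal left out and no filter, a setting added after the data were seen, the estimate was 0.46 for Hba-a1 (unadjusted limma p 0.275) and 0.51 for Hba-a2 (p 0.252), and for Hbb-bs it turned to -0.27 (SE 0.39, p 0.506). For Hbb-bt no value was left, as it was then at 0 in all samples. Leaving out PND replicate 2, the PND animal with all globins at 0, moved Hba-a1 to 2.01 (SE 0.74, unadjusted limma p 0.0330) and past the cut-off, with an adjusted p of 0.998. With a pseudocount of 1 the estimates fell to 0.31 for Hba-a1 and 0.37 for Hbb-bs, and with 0.01 they were 3.19 and 1.31.

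The 4 globin genes were compared with each other over the 6 animals, on the log2(FPKM + 0.1) scale. Over the 6 pairs of genes Pearson's r ranged from 0.777 to 0.976 and Spearman's rho from 0.50 to 1. Hba-a1 and Hba-a2, which share most of their coding sequence, gave an exact permutation p of 0.0333 for Pearson's r, and the other pairs gave 0.167. With most values at 0 few p-values were possible. The smallest was 0.0333 for Hba-a1 with Hba-a2, and 0.167 for pairs with Hbb-bt, which was above 0 in 1 sample. After Benjamini-Hochberg adjustment over the pairs the smallest exact permutation p was 0.167 for r and 0.20 for rho. When the 2 samples farthest from the median of the first gene were left out, r was undefined in all 6 pairs because at least 1 gene of the pair was at 0 in the 4 remaining samples, so the relation rests on those samples.

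The haem pathway of the tissue itself was measured in every animal. All 8 enzymes of haem synthesis shared by all cells had values and passed the filter, and 0 of 8 were called, against 1.33% of genes. Their median log2 difference was 0.05, beside 0.01 over all genes tested, and 5 of 8 lay above 0. The highest were Cpox and Fech, which catalyse steps in the mitochondrion. Cpox, coproporphyrinogen oxidase, had 19.8, 25.5 and 13.6 FPKM in the PND animals and 26.8, 13.7 and 16.0 FPKM in the CON animals. Fech, the ferrochelatase that inserts iron into the ring, had 15.2 ± 1.04 FPKM in the PND group and 14.8 ± 1.65 FPKM in the CON group (SD, n = 3), and its values overlapped between the groups. Alas1, the enzyme of the first step in non-erythroid cells, had 3.16, 1.83 and 3.83 FPKM in the PND animals and 1.93, 3.02 and 2.87 FPKM in the CON animals, with a log2 difference of 0.13 (SE 0.31). For Alas2, the erythroid form of this enzyme, no level can be set beside it.

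The remaining enzymes of the pathway were lower, and in PND replicate 1 Ppox was below Hba-a1, Hbb-bs and Hbb-bt. Of the 8 enzymes 1, Uros, lay apart between the groups, where 7.66% of all genes tested did. Alad, Uros and Urod, which act in the cytosol, ranged from 0.488 to 2.37 FPKM over all samples. Uros had 1.89 ± 0.180 FPKM in the PND group and 2.20 ± 0.0769 FPKM in the CON group (SD, n = 3), and all PND values lay below all CON values, with a log2 difference of -0.21 (SE 0.18) and an unadjusted limma p of 0.283. Ppox, the enzyme before Fech, had 0.298, 0.469 and 0.829 FPKM in the PND animals and 0.751, 0.837 and 0.949 FPKM in the CON animals. Its log2 difference of -0.66 (SE 0.36, unadjusted limma p 0.109) was the lowest of the 8 enzymes and its groups overlapped. PND replicate 1, the animal with the highest globin level, had the lowest Ppox value.

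**Figure D2:**
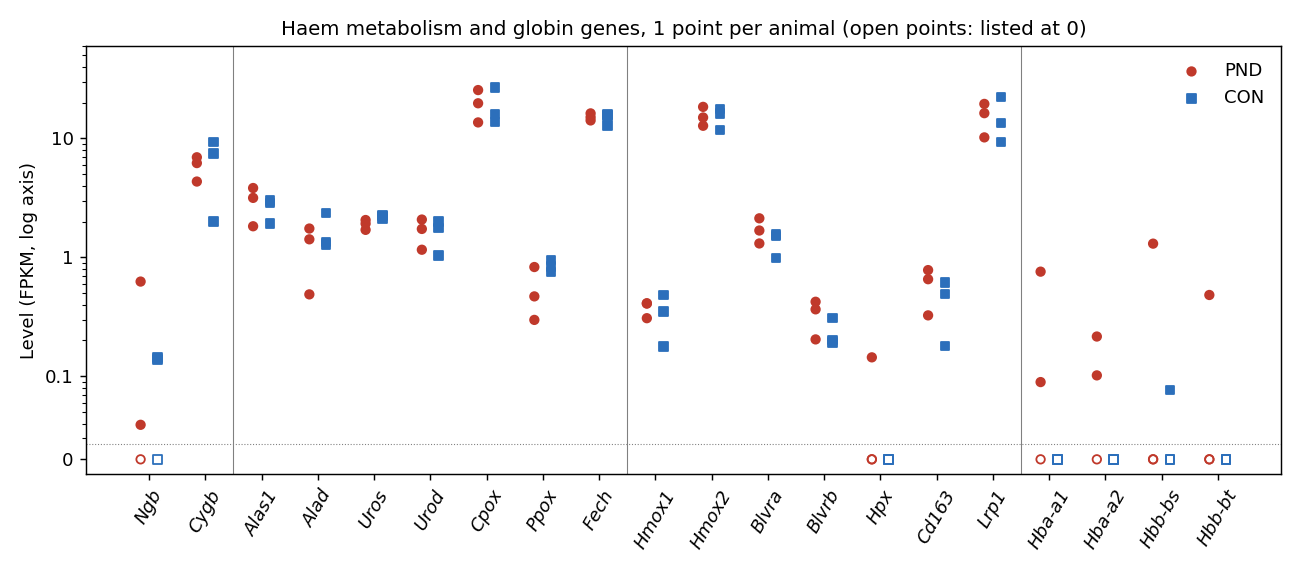
Level in FPKM (vertical axis, log scale, with values of 0 drawn as open points under the dotted line) of the tissue globins, enzymes of haem synthesis, the genes of haem breakdown and clearance and the adult globins, from left to right between vertical lines. Each red circle is a PND animal and each blue square a CON animal. The enzymes shown from Alas1 to Fech lay between 0.298 and 26.8 FPKM in every animal, whereas most adult globin values were at 0.

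Among 9 transporters of haem and mitochondrial iron, 0 were called and the median log2 difference was 0.01 (range -0.50 to 0.26). Slc48a1, a haem transporter of lysosomal membranes, ranged from 2.86 to 11.6 FPKM over all samples. Slc25a37 (mitoferrin 1), the mitochondrial iron importer known from red cell precursors, had 1.14, 2.63 and 3.41 FPKM in the PND animals and 4.08, 3.30 and 0.683 FPKM in the CON animals. Its spread within each group exceeded the difference between them (0.03 on the log2 scale, SE 0.67).

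Genes that break down or clear haem had levels that overlapped between the groups, and all with values except Hpx were above 0 in every animal. Of 8 listed genes 7 had values, 6 were tested and 0 were called, and all 6 had a log2 difference above 0 (median 0.25, range 0.02 to 0.42), while 9529 of all 18185 genes tested did. The smallest unadjusted limma p of the 6 was 0.286. Hmox2, the constitutive haem oxygenase of the brain, had 18.4, 12.8 and 15.0 FPKM in the PND animals and 11.8, 16.3 and 17.6 FPKM in the CON animals. Hmox1, the inducible haem oxygenase, had 0.376 ± 0.0588 FPKM in the PND group and 0.337 ± 0.153 FPKM in the CON group (SD, n = 3), a log2 difference of 0.18 (SE 0.38). Cd163, the scavenger receptor for haemoglobin on macrophages, had 0.325, 0.655 and 0.781 FPKM in the PND animals and 0.614, 0.494 and 0.180 FPKM in the CON animals. Hpx, the haem-binding plasma protein, had 0.144 FPKM in PND replicate 3 and was listed at 0 in the other samples. Lrp1, the receptor for the complex of haem and haemopexin, ranged from 9.37 to 22.2 FPKM.

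Iron uptake and storage genes were the most abundant of the pathway. All 10 had values, 0 were called and their median log2 difference was -0.04 (range -0.26 to 0.41). Fth1, the heavy chain of the iron store ferritin, had 328 ± 33.3 FPKM in the PND group and 347 ± 55.8 FPKM in the CON group (SD, n = 3), and Trf, the iron carrier transferrin, ranged from 18.3 to 29.8 FPKM. Cp, the plasma ferroxidase ceruloplasmin, had 2.40 ± 0.362 FPKM in the PND group and 1.80 ± 0.253 FPKM in the CON group (SD, n = 3), and all PND values lay above all CON values. Its log2 difference was 0.39 (SE 0.21) with an unadjusted limma p of 0.0970. Of the 10 genes only Cp lay apart between the groups, where 7.66% of all genes tested did.

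Of the globins of nervous tissue, cytoglobin was higher and neuroglobin was in the range of the adult haemoglobins. Cygb (cytoglobin) had 6.21, 4.34 and 6.95 FPKM in the PND animals and 2.00, 9.32 and 7.45 FPKM in the CON animals, which put it above every haemoglobin gene in every animal. Ngb (neuroglobin, known from neurons) had 0.0390, 0 and 0.626 FPKM in the PND animals and 0.138, 0 and 0.144 FPKM in the CON animals. The log2 differences were 0.13 (SE 0.53) and 0.26 (SE 0.82), and neither gene was called. The embryonic and theta globins of the same clusters (Hba-x, Hbb-bh1, Hbb-bh2, Hbb-y, Hbq1a and Hbq1b) and the muscle globin Mb were not analysed here.

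Other transcripts of blood cells were examined beside the globins. Of 17 genes known mainly from the red cell lineage 4 had values, namely Tspan33, Epor, Ermap and Tfr2, and the others, among them Slc4a1, Klf1 and Gata1, were not analysed here. No gene of the whole series was at 0 in all 6 samples. The summed level of the 4 genes was 1.56 to 2.08 FPKM in PND and 1.11 to 2.16 FPKM in CON, with 1.57 FPKM in PND replicate 1. Most of it came from Tspan33, a tetraspanin, with 0.961 to 1.64 FPKM in every animal. Tfr2, a transferrin receptor of liver and red cell precursors, was highest in PND replicate 1 (0.115 FPKM) and had 0.0604 to 0.110 FPKM in the other animals. Epor, the erythropoietin receptor, was listed at 0 in PND replicate 1 and in CON replicate 1, 2 of the 3 animals with any globin value above 0, and had 0.228 to 0.524 FPKM in the other animals. Ermap had 0.0777, 0.0652 and 0.0640 FPKM in the PND animals and 0.0917, 0.0843 and 0.167 FPKM in the CON animals. It did not pass the filter, and of the 4 genes only its groups lay apart, where 7.66% of all genes tested did. Among 7 genes shared by red cells and neurons, such as the spectrin Sptb and the ankyrin Ank1, 0 were called, with a median log2 difference of 0.08. Without PND replicate 1, Add2, a membrane skeleton adducin, passed the cut-off (1.04, SE 0.41, unadjusted limma p 0.0424, adjusted p 0.99996).

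The neutrophil and platelet genes that had values were low except for Gp1bb. Of 12 neutrophil genes only S100a8, an abundant calcium-binding protein of these cells, had values, and the others were not analysed here. S100a8 had 0.230 FPKM in PND replicate 1 and was listed at 0 in all other animals. Of 10 platelet genes 6 had values, and their sum was 0.387 to 7.13 FPKM in PND and 2.39 to 10.3 FPKM in CON. Most of it came from Gp1bb except in PND replicates 1 and 3. Tubb1, a tubulin of platelets, had 0.161 FPKM in PND replicate 1 and was listed at 0 elsewhere. Pf4, a chemokine of platelet granules, and Treml1, a platelet receptor, had 0.235 and 0.171 FPKM in PND replicate 3 and were listed at 0 elsewhere. These 4 genes, singled out after their values were seen, were thus above 0 only in the 2 PND animals in which more than 1 globin was above 0, and each value lay close to the level of single fragments. Other platelet genes went a different way. Gp5, a platelet receptor subunit, had 0.0515 FPKM in PND replicate 1 and higher values in CON replicates 1 and 2 (0.122 and 0.168 FPKM), and was listed at 0 elsewhere. Itga2b, the platelet integrin, was above 0 in all animals and highest in CON replicate 3 (0.137 FPKM). Whether blood left in the tissue had a part in these values was not tested.

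Gp1bb, a subunit of the platelet receptor for von Willebrand factor, was the only tested gene of the platelet list. It had 0.0907, 7.05 and 0.0855 FPKM in the PND animals and 2.25, 10.05 and 5.30 FPKM in the CON animals. PND replicates 1 and 3, the animals with the highest globin sums, had its lowest values, and PND replicate 2 lay within the CON range. The log2 difference was -2.997 (SE 1.38) with an unadjusted limma p of 0.0643, and with PND replicate 2 left out it was -4.75 (SE 0.59, unadjusted p 0.000160, adjusted p 0.383). With the replicate number as a block its unadjusted p was 0.0141. The other platelet genes with values stayed at or below 0.235 FPKM in every animal. Whether the level of Gp1bb came from platelets was not tested.

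**Figure D3:**
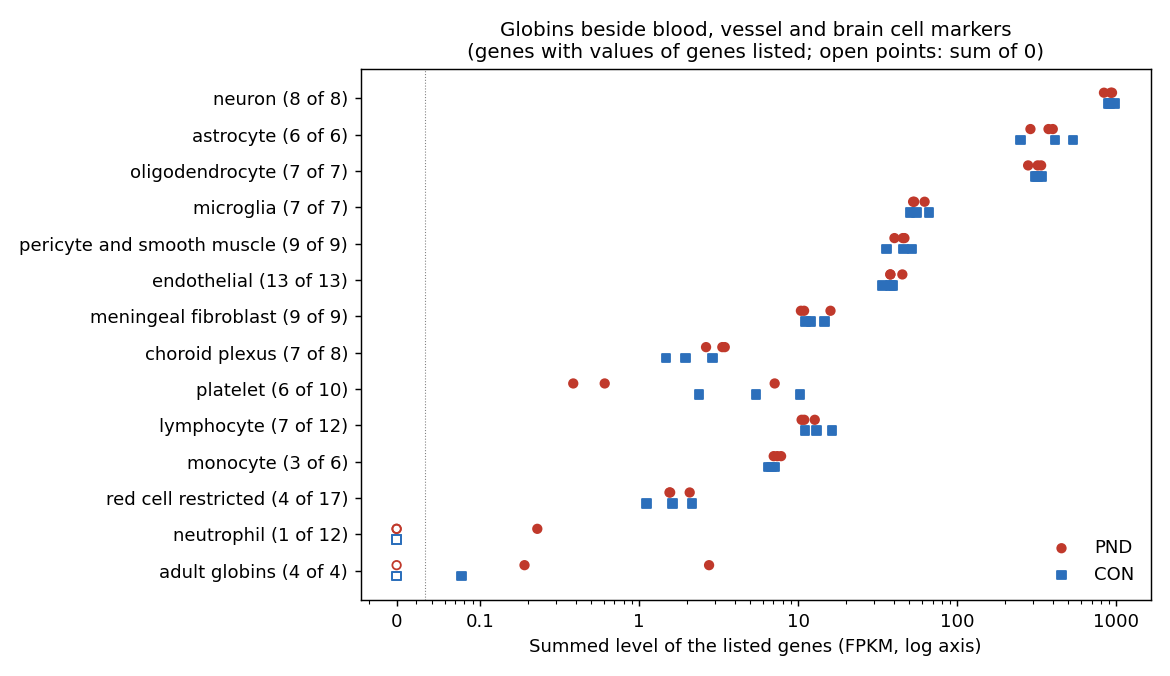
Summed level in FPKM (horizontal axis, log scale, with sums of 0 as open points left of the dotted line) of the adult globins and of lists of marker genes (rows, with the number of genes that had values out of those listed) in each PND animal (red circles) and each CON animal (blue squares). The adult globins spanned 0 to 2.76 FPKM and the neutrophil list 0 to 0.230 FPKM, and in PND replicate 1 the globin sum exceeded the red cell restricted sum of 1.57 FPKM and the platelet sum of 0.387 FPKM.

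Vessel markers were measured as a further group. All 13 endothelial genes had values and 0 were called, with sums of 45.2, 38.0 and 38.0 FPKM in PND and 34.0, 38.1 and 39.5 FPKM in CON and a median log2 difference of -0.02 (range -0.38 to 0.79). PND replicate 1 had the highest endothelial sum (45.2 FPKM, the next 39.5) as well as the highest globin sum (2.76 FPKM, the next 0.191). The same animal also had the highest sums of the meningeal fibroblast list (16.0 FPKM, the next 14.6), the choroid plexus list (3.46, the next 3.34) and the monocyte list (7.82, the next 7.41). Not every gene of these lists followed its sum. In PND replicate 1 the monocyte gene Ccr2 was listed at 0 and the meningeal gene Lum had its lowest value (0.436 FPKM). The choroid plexus gene Ttr had 0.0927 FPKM there and 0.207 FPKM in PND replicate 2. The part of these cells or of vessel cells in the globin level of PND replicate 1 was not tested. Flt1, a receptor of vascular growth factors, and Abcb1a, the efflux pump of the blood-brain barrier, ranged from 6.75 to 7.62 and from 5.92 to 9.55 FPKM. In 3 of the 13 genes the groups did not overlap, where 7.66% of all genes tested did not. Of these, Vwf (von Willebrand factor) had a log2 difference of 0.64 (SE 0.29, unadjusted limma p 0.0613) and Tek, the angiopoietin receptor, had a log2 difference of -0.38 (SE 0.18, unadjusted limma p 0.0776). Ly6c1, a surface protein of brain capillaries that was picked for having the smallest p of the list, had 5.79 ± 1.43 FPKM in the PND group and 3.23 ± 0.117 FPKM in the CON group (SD, n = 3). Its log2 difference of 0.79 (SE 0.21, unadjusted limma p 0.00568, adjusted p 0.9999) did not reach the cut-off. Pericyte and smooth muscle genes (9 of 9 with values, median 0.09) and genes of meningeal fibroblasts (9 of 9, median -0.07) held 0 called genes each, and their sums overlapped between the groups.

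Over all 20 lists, 175 genes were listed, 130 had values, 112 were tested and 0 were called (0%, against 1.33% of all genes). The alternatives with all samples called 1 of them, Gp1bb. The fits with a sample left out called Gp1bb and Add2 as above, Acta2 without PND replicate 2 or CON replicate 2 (1.06 and 1.12), C1qa without CON replicate 2 (1.08) and Clic6 without CON replicate 3 (1.06).

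**Figure D4:**
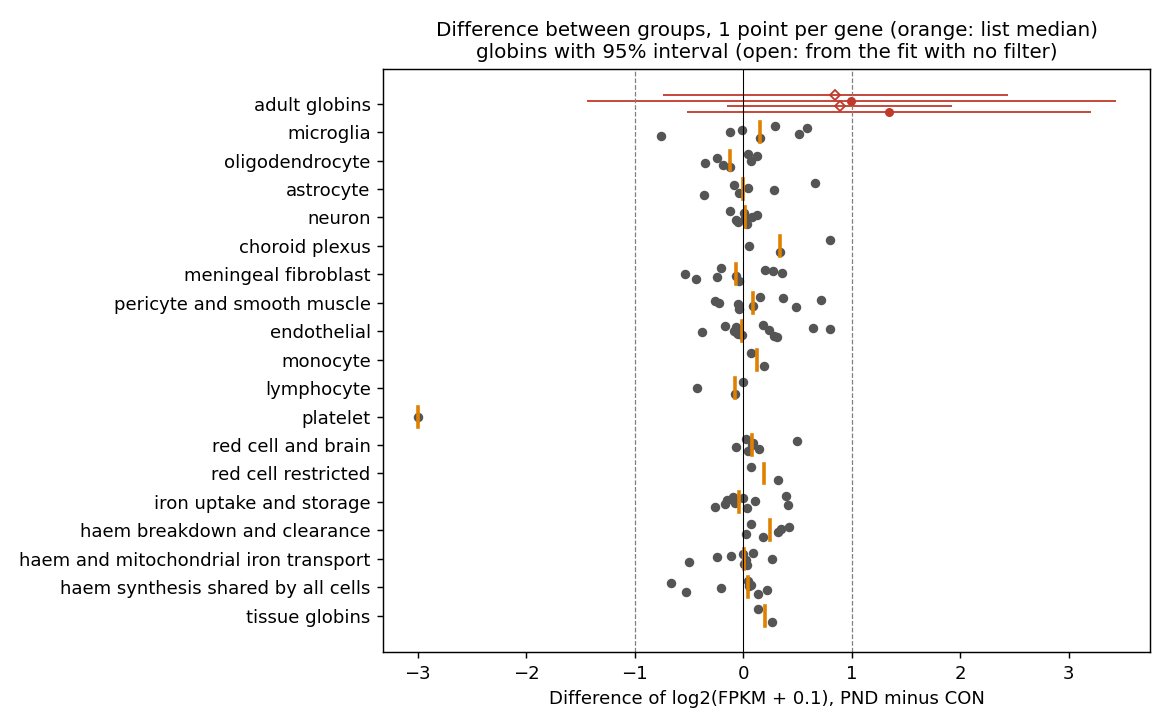
Difference of log2(FPKM + 0.1), PND minus CON, in limma (horizontal axis) for each tested gene of each list (grey points, rows by list, orange bars for the median of the list) and for the 4 adult globins with their 95% intervals (red, open where taken from the fit with no filter). Dashed lines mark a difference of 1 in either direction. The list medians lay between -0.13 (oligodendrocyte) and 0.34 (choroid plexus) apart from the single platelet gene at -2.997, and all 4 globin intervals crossed both 0 and 1.

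The genes whose pattern over the 6 animals was most like the mean globin pattern were sought among the 12387 genes that averaged at least 1 FPKM, with Pearson's r of log2(FPKM + 0.1) as the measure of likeness. The 10 most alike were Gm20604, Rrn3, Hecw2, Lrp12, Kcnh5, Gm43794, Rnf185, Lncpint, Reps1 and Borcs7, with r from 0.994 to 0.968. All 10 had their highest value in PND replicate 1, and in 9 of them it was 1.12 to 1.56 times that of the next animal. Rnf185, a ubiquitin ligase of the endoplasmic reticulum, differed in size, with 11.6 FPKM in PND replicate 1 and 0.514 to 1.07 FPKM in the other animals. Its estimated log2 difference was 1.42 with an unadjusted limma p of 0.168, and like the globins it was not called. PND replicate 1 held the highest of the 6 values for 2992 genes (14.2%), by any margin.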

How the data were processed

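mRNA levels were measured in 6 prefrontal cortex samples, 3 PND and 3 CON, grouped by the treatment label. The authors removed ribosomal RNA, filtered reads with Seqtk, aligned them with HISAT2, counted fragments with StringTie, scaled samples by TMM and deposited the values as FPKM. The build, the annotation and the use of strand were not given in the sources used here. The submitters' processing notes also list Bowtie 0.12.2, mm8 and mm9, with no role named.

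Positions, exon lengths and transcripts came from GENCODE M21 on GRCm38, and promoters from RefSeq GRCm38.p6, in which all 5 members were matched by symbol. The effective depth was estimated from products of FPKM and exon length (of the values from 0.5 to 20.5 fragments, 41.6% to 44.8% came within 0.05 of whole numbers, where values without steps would give 10%). The groups were compared with limma 3.58.1 in R 4.3.3 (lmFit, eBayes with trend, no covariate) on log2(FPKM + 0.1) for genes that averaged at least 0.1 FPKM, with Benjamini-Hochberg adjustment over all genes tested. Exact permutation tests used scipy 1.17.1. On data simulated for PND against CON with 18026 genes, 199 of 200 genes changed 4-fold were recovered (99.5%), and 180 unchanged genes passed the cut-off. The changed genes were drawn only from those averaging at least 0.5 FPKM, with a fixed spread not taken from these samples. Every globin gene averaged less (0.0529 to 0.230 FPKM), so this recovery does not apply to them.

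The genes named were the 5 members, the genes of each list past the cut-off or otherwise the 2 with the highest mean, and the 10 genes most like the globins. Some genes of the lists are not reported here by name. Other names, such as further enzymes of the haem pathway, were chosen after their values were seen. The members and lists were chosen with earlier results of these data known. Alternatives were other pseudocounts, filters, scalings, no intensity trend, a GC correction, a replicate block and each sample left out. Nothing says that a replicate number marks a shared litter or day, and p-values measure the spread between these 6 samples.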

Additional observations from a re-analysis of the deposited data

How the results depend on the processing

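Hba-a1 and Hbb-bs stayed uncalled with the other pseudocounts, no filter, the other scalings, no trend and the GC correction, with all samples. Hba-a2 and Hbb-bt were fitted only without a filter, and were not run under the other settings. When only genes that averaged at least 1 FPKM were kept, or with the filter kept and PND replicate 1 left out, no globin gene remained to be tested. Hba-a1 ranged from 1.34 to 2.01 when another sample was left out, the highest being that without PND replicate 2 that passed the cut-off, and Hbb-bs from 0.86 to 1.63. Hbb-bs turned to -0.27 with no filter and without PND replicate 1, since CON replicate 1 was then the only sample above 0, and with no filter alone it was 0.996. The count of genes past the cut-off over the whole series, 241 in the report, was 25 at the pseudocount 1, 59 for genes averaging at least 1 FPKM and 235 to 388 with a sample left out, the highest without CON replicate 2. All scalings moved the median of all genes by less than 0.1. The split into 153 higher and 88 lower genes was 124 and 116 with quantile normalization, 107 and 128 without PND replicate 3, and 286 and 102 without CON replicate 2, and without CON replicate 1 the number of lower genes was 144. On a depth scale that may be too low for these genes, only 3 of 24 globin values reached 3 estimated fragments, which limits their precision.

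Both groups carry the replicate numbers 1 to 3. The correlation of the deviations of same-numbered samples was -0.0475, -0.266 and 0.0111, against a mean of 0.0504 over differently numbered samples, so the numbers give no pairing. With the replicate block 226 genes passed the cut-off, and Hba-a1 (1.34, unadjusted limma p 0.127) and Hbb-bs (0.996, p 0.250) were not called. With GC correction and the block their p-values were 0.0937 and 0.243.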

Other observations

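Lists of brain cells and of neighbouring tissue, which the account of the globins did not need, held 0 called genes. The 8 neuronal genes had a median log2 difference of 0.02, and Snap25, a protein of synaptic vesicle fusion, ranged from 419 to 555 FPKM. The 6 astrocyte genes had a median of 0.00134, the 7 oligodendrocyte genes of -0.13, the 7 microglia genes of 0.15, the 3 tested lymphocyte genes of -0.08 and the 2 tested monocyte genes of 0.13. The 3 tested choroid plexus genes had a median of 0.34, and Clic6, a chloride channel protein of that tissue, had 1.84 ± 0.319 FPKM in the PND group and 1.05 ± 0.399 FPKM in the CON group (SD, n = 3), an unadjusted limma p of 0.0319 and groups that did not overlap.

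Behind these medians, single genes lay apart between the groups in opposite directions without reaching the cut-off, and those with the smallest p were picked after their values were seen. Gfap, the intermediate filament of astrocytes, had 21.8 ± 3.65 FPKM in the PND group and 13.6 ± 1.10 FPKM in the CON group (SD, n = 3), a log2 difference of 0.66 (SE 0.15, unadjusted limma p 0.00294). Aqp4, the water channel of astrocyte endfeet, had 24.0 ± 2.14 and 30.8 ± 3.85 FPKM, a log2 difference of -0.36 (SE 0.13, unadjusted limma p 0.0275). P2ry12, a purine receptor of resting microglia, had 5.49 ± 1.36 and 9.27 ± 1.50 FPKM, a log2 difference of -0.76 (SE 0.21, unadjusted limma p 0.00767). The Benjamini-Hochberg adjusted limma p of each was 0.9999.

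Slc1a2, the main glutamate transporter of astrocytes, spread more within groups than between them, with 113, 211 and 219 FPKM in the PND animals and 68.5, 250 and 368 FPKM in the CON animals.

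Abundant genes of the remaining lists are given by their range over the 6 animals. Among pericyte genes Rgs5 had 27.5 to 36.5 FPKM and Vtn 2.56 to 4.78 FPKM, and among meningeal genes Dcn had 2.86 to 5.80 FPKM and Foxc1 2.53 to 4.89 FPKM. The myelin gene Mobp had 110.0 to 139 FPKM. The microglia gene C1qb, a chain of complement, had 3.43 to 13.1 FPKM. The lymphocyte list, whose sum of 10.5 to 12.7 FPKM in PND overlapped with 11.1 to 16.4 FPKM in CON, was led by Trbc2 (4.25 to 8.51 FPKM) and Ighm (3.55 to 7.02 FPKM), while Cd3e, Cd3g, Cd79a and Cd79b were each at 0 in most animals. The monocyte list was led by Vcan (3.08 to 4.03 FPKM) and Fn1 (2.54 to 4.07 FPKM), which other cells of the brain also express, and Ccr2, a receptor of inflammatory monocytes, ranged from 0 to 0.0612 FPKM.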
